A study of Mus musculus with 12 samples.

Results

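The mature microRNAs (miRNAs) of the Mirg cluster in the imprinted Dlk1-Dio3 domain were described in mouse embryonic fibroblasts (MEFs), embryonic stem cells (ESCs) and reprogrammed cells. Members were chosen by name, as the rows whose miRNA number belongs to a hairpin between Mir379 and Mir410. The choice used no measured value and took 71 of the 1042 miRNAs of the series, which carry 36 hairpin names. Small RNA libraries were made from 5 cell types, with 3 libraries each of MEFs and ESCs and 2 each of NT-ESCs, NT-iPSCs and induced pluripotent stem cells (iPSCs). A dox-inducible lentivirus with Oct4, Sox2, Klf4 and c-Myc turned MEFs into iPSCs. In nuclear transfer a nucleus is placed into an enucleated oocyte, and it was taken from a MEF for NT-ESCs and from an iPSC for NT-iPSCs. These last 3 types are called reprogrammed cells below. MEFs and the reprogrammed cells have the background C57B6/129SvJae F1, whereas the ESCs were the line E14 of strain 129/ola. All pluripotent cells were grown with leukaemia inhibitory factor on irradiated MEFs, so that their libraries can hold RNA of feeder cells. Each cell type was 1 line, and its replicates were separate batches of RNA. P-values therefore cover the spread between batches and not that between lines.

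Dlk1-Dio3 is an imprinted domain, in which the protein genes Dlk1, Rtl1 and Dio3 are expressed from the paternal chromosome and the long noncoding RNAs Meg3, Rian and Mirg from the maternal one. The miRNAs of the cluster are cut from the maternal noncoding transcripts and are known as abundant in embryos, placenta and neurons. The domain is known in stem cell biology because its maternal genes are silenced in some mouse iPSC lines. Each hairpin yields a 5p and a 3p miRNA, of which usually one is kept, and bases 2 to 8 of that miRNA, the seed, select its targets.

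In the RefSeq table of build GRCm38.p6, 33 of the 36 hairpins were found by symbol, each on the plus strand of chromosome 12. They span 34.7 kb, from 109709060 to 109743795. Of these, 12 lie within the Mirg gene of GENCODE M21 (GRCm38, chr12:109729764-109749460) and 21 lie before its annotated start. The submitters' notes name build mm8, to which no position was converted. A mature RefSeq sequence was found for 63 of the 71 members, with lengths of 19 to 25 bases. The 8 members with the most reads over the 5 cell types are shown first, with the seed in capitals, because they set the total of the cluster.
miR-379-5p: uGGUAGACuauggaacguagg
miR-541-5p: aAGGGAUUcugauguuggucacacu
miR-134-5p: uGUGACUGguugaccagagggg
miR-382-5p: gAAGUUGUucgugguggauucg
miR-323-3p: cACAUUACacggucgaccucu
miR-411-5p: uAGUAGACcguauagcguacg
miR-382-3p: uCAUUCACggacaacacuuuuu
miR-543-3p: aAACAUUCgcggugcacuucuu

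The next set holds members described below in reprogrammed cells against ESCs, with miR-1193-5p and miR-376c-5p for their shared seeds and miR-409-3p for the comparisons among reprogrammed types.
miR-381-3p: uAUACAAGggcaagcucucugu
miR-300-3p: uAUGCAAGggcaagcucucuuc
miR-380-5p: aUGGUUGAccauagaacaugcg
miR-376b-5p: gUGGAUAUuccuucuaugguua
miR-495-3p: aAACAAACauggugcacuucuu
miR-329-3p: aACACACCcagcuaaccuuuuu
miR-376a-3p: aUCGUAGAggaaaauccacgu
miR-409-3p: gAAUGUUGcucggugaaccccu
miR-1193-5p: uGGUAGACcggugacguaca
miR-376c-5p: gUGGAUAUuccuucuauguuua

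Among the 63 sequences, 5 seeds were shared by 2 members each. miR-379-5p and miR-1193-5p share GGUAGAC, although the remainder differs and 10 of 20 aligned bases are unlike. miR-376b-5p and miR-376c-5p share UGGAUAU and differ at 1 of 22 bases, so their reads may have been split by the counting. miR-379-3p and miR-411-3p share AUGUAAC and differ at 2 of 22 bases, so their reads may have been split likewise. miR-410-5p and miR-494-5p share GGUUGUC, and miR-758-5p and miR-1197-5p share GGUUGAC. miR-300-3p and miR-381-3p differ at 3 of 22 bases, 1 of which lies in the seed, as do miR-376a-3p and miR-376b-3p at 3 of 21 bases, and reads of both pairs are uncertain for the same reason. miR-495-3p and miR-543-3p differ at 4 of 22 bases, 2 of which lie in the seed. The miR-376 group is known for editing of adenosine to inosine in its primary transcripts, which these values do not record.

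The hairpins of 4 members are shown with both mature arms in capitals, because the arm that held most reads differed between libraries (miR-380, miR-376a, miR-329) or because both arms changed by a large amount in opposite directions (miR-381). They lie on the plus strand of GRCm38.p6 at chr12:109711803-109711863, chr12:109723781-109723848, chr12:109713481-109713577 and chr12:109726822-109726896, in the order of the lines.
miR-380: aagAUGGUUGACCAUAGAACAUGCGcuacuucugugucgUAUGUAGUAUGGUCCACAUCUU
miR-376a: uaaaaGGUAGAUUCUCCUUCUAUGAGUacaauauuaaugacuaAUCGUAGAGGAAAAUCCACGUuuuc
miR-329: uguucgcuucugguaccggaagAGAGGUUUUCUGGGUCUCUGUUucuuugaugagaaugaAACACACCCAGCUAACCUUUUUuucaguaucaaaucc
miR-381: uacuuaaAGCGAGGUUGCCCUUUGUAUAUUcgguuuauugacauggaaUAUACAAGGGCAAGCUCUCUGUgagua

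The deposited values are normalized, variance stabilized (VST) values on a log2 scale, and the whole reads behind them were recovered. The libraries held from 4863365 to 8608689 reads on miRNAs, where 3 reads stand for a CPM (reads scaled to the library total) of 0.348 to 0.617. Levels below are normalized reads, that is reads divided by the size factor of the library. Size factors were 0.762 to 0.999 in the MEF and ESC libraries and 1.14 to 1.44 in the reprogrammed libraries. These ranges do not overlap, although the labels used here name no library batch. Where reprogrammed cells are set against MEFs or ESCs, the cell type and a difference in library preparation cannot be told apart, and against ESCs the strain cannot either. The 24 rows of ESC markers (miR-290 to miR-295, miR-302 and miR-367) summed to 8.55 to 146 normalized reads in MEFs, with 13 rows at 0, and to at least 557128 in every pluripotent library. A difference is the mean VST of one group minus that of another, tested with limma, and at low read numbers it understates a log2 fold change. The test took the 732 miRNAs for which 2 or more libraries held 10 reads, and a member passed at an adjusted p under 0.05. Of the 71 members, 64 could be tested. The other 7 had at most 9 reads in any library, and miR-453, miR-654-3p and miR-654-5p had none.

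Members took 8.93%, 9.09% and 9.38% of the miRNA reads in the MEF libraries and 9.28%, 9.58% and 10.0% in the ESC libraries. The share was 9.65% and 9.78% in iPSCs, 3.46% and 3.94% in NT-ESCs and 5.02% and 5.58% in NT-iPSCs. The NT-ESC libraries thus had the lowest shares, the NT-iPSC libraries the next, and the other 8 libraries lay close together. In normalized reads the sum over members was 946343 ± 99899 in MEFs and 536076 ± 26985 in ESCs (SD, n = 3 each). It was 405280 ± 35674 in iPSCs, 321504 ± 19527 in NT-iPSCs and 197769 ± 12431 in NT-ESCs (SD, n = 2 each). On this scale iPSCs held 2.05 times the reads of NT-ESCs, and NT-iPSCs held 1.63 times. In such bulk samples, fewer cells with the miRNA and fewer copies per cell cannot be told apart.

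**Figure D1:**
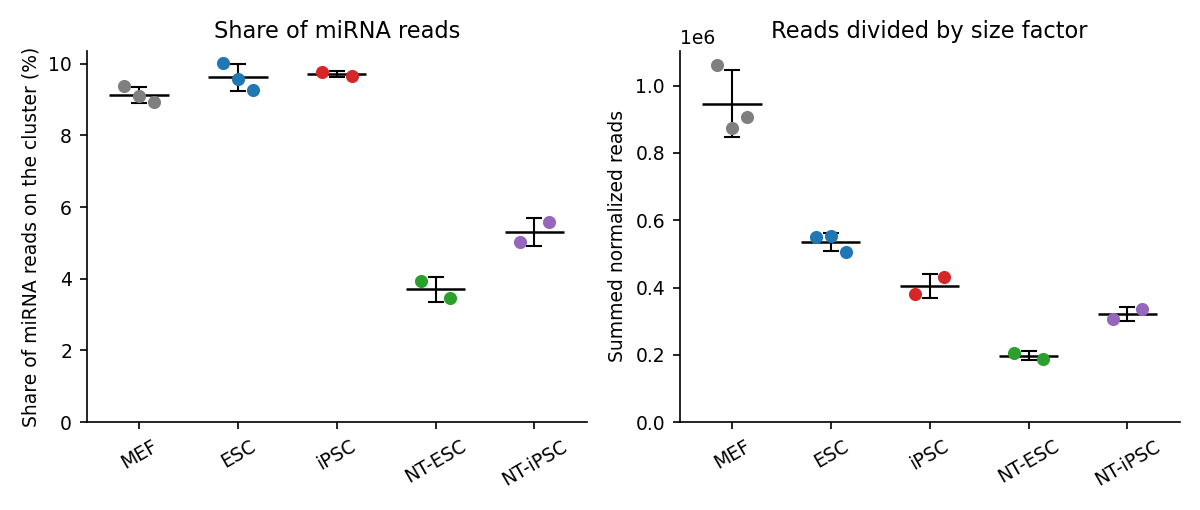
Reads on the cluster in each library, as a share of miRNA reads (left, %) and as summed normalized reads (right), with the mean and SD of each cell type as bars. The 2 NT-ESC libraries are lowest on both scales (3.46% and 3.94% on the left).

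A few members made up most of this sum in MEFs and ESCs. In MEFs miR-379-5p took 42.0% ± 3.92 (SD, n = 3) of the member reads and miR-541-5p 25.7% ± 4.95. In ESCs the same pair led, with 38.5% ± 6.30 and 30.1% ± 6.57 (SD, n = 3), and miR-134-5p was next in both types. In reprogrammed cells the sum was spread over more members, and miR-541-5p led with 14.4% ± 1.39 (SD, n = 6), followed by miR-382-5p with 10.9% ± 1.15 and miR-323-3p with 10.0% ± 1.14. The 3 leading members of each library held 76.0% to 81.0% of member reads in MEFs and ESCs and 34.0% to 39.0% in reprogrammed cells.

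NT-ESCs were compared with iPSCs, which shared their strain and culture. No label says whether these libraries were prepared together, although their size factors lay within the 1.14 to 1.44 given above. Each reprogrammed type was 1 line, so here and below the route of reprogramming cannot be told apart from the line. Of the 64 members, 35 were lower in NT-ESCs and none higher, where 13.1% of all 732 miRNAs tested were lower and 12.6% higher. At an unadjusted p under 0.05, 49 members were called, beside 273 of the 732 miRNAs. The median difference of the members was -0.88, beside -0.10 over all miRNAs tested. In 57 of the 64, both NT-ESC libraries lay below both iPSC libraries, where 37.6% of all miRNAs tested did so. The count was 12 without NT-ESC replicate 72, 21 without NT-ESC replicate 71 and 22 in a fit of these cell types alone, with no member higher in any of these.

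miR-134-5p had 32467 and 35433 normalized reads in the iPSC libraries and 11294 and 11357 in the NT-ESC libraries. The NT-ESC values were close to each other and well below both iPSC values. The difference was -1.58 (SE 0.19, adjusted p = 0.00035, limma). This miRNA is known for effects on dendritic spines in neurons and for targeting Nanog in mouse ESCs. miR-300-3p had 643 and 717 normalized reads in iPSCs and 252 and 297 in NT-ESCs, a difference of -1.31 (SE 0.16, adjusted p = 0.000345, limma). miR-409-3p had 11239 and 11547 in iPSCs and 4692 and 4878 in NT-ESCs, a difference of -1.25 (SE 0.16, adjusted p = 0.000371, limma). For these 3 members, the gap between the lines was larger than the gap between the libraries of either line.

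The most abundant members moved the same way. miR-541-5p had 51716 and 66423 normalized reads in iPSCs and 25819 and 32412 in NT-ESCs, a difference of -1.02 (SE 0.21, adjusted p = 0.0047, limma). It no longer passed without NT-ESC replicate 72, at -0.85. miR-382-5p had 41743 and 48970 in iPSCs and 18406 and 22067 in NT-ESCs, a difference of -1.17 (SE 0.21, adjusted p = 0.00277, limma). Its other arm miR-382-3p, with 34013 and 34183 in iPSCs and 10160 and 12786 in NT-ESCs, differed by -1.58 (adjusted p = 0.00576, limma) and lost the call without NT-ESC replicate 72, at -1.42. In each of these pairs of libraries the lines did not overlap. The calls of miR-379-5p (-0.97), miR-323-3p (-1.01), miR-411-5p (-1.01) and miR-543-3p (-0.91) were lost when NT-ESC replicate 71 or 72 was left out, with differences from -0.88 to -1.06. Leaving out iPSC replicate 62 ended the calls of miR-379-5p (-0.74), miR-323-3p (-0.94) and miR-411-5p (-0.95), and leaving out iPSC replicate 63 those of miR-323-3p (-1.08), miR-411-5p (-1.06) and miR-543-3p (-0.64).

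Only 2 of the 64 members had a difference above 0. miR-539-3p had 18.4 and 27.1 normalized reads in iPSCs and 41.6 and 43.7 in NT-ESCs, a difference of 0.91 that did not pass (adjusted p = 0.191, limma). miR-376c-5p, at 0.01 with an SE of 1.01, had at most 4.16 normalized reads in any library of the pair.

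Members lower in NT-ESCs lay both inside and before the Mirg gene, with a larger part called inside it. Of the 21 tested members inside the gene, 15 were lower with a median difference of -0.96. Of the 38 before it, 17 were lower with a median of -0.82. Over all miRNAs tested 13.1% were lower and 12.6% higher. The 5p and 3p arms had medians of -0.96 and -0.77. With the reads of both arms of a hairpin summed, 25 of 34 hairpins were lower and none higher, where 16.8% of all 470 hairpins were lower and 17.4% higher. The other miRNAs of the domain, on the side of Meg3, Rtl1 and Rian, were described as counts from a list of 35 names. Of its 30 tested members 18 were lower in NT-ESCs and none higher, with a median of -1.01. Over all miRNAs tested these shares were 13.1% and 12.6%.

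Scaling moved the number of calls and not their direction. It was 33 with TMM-type scaling, 30 with upper quartile scaling, 48 with clean reads as library size and 53 with all miRNA reads, in each case with no member higher. The median of the members lay 0.78 to 0.79 below that of all miRNAs tested under each of these scalings. Scaling shifts all miRNAs of a library by nearly the same amount, so this distance could hardly change and tests nothing. Fibroblast markers (miR-199a, miR-199b, miR-214, miR-143 and miR-145) ran the other way. Their 10 rows summed to 90590 and 95163 normalized reads in iPSCs and to 317346 and 335157 in NT-ESCs, beside 665818 to 1124766 in MEFs, and 9 of the 10 were higher in NT-ESCs than in iPSCs. No marker row was at 0 in any of these types. Neural and differentiation markers (miR-9, miR-124, miR-128, miR-129 and miR-137) summed to 16242 and 20138 in iPSCs and to 24948 and 29046 in NT-ESCs, and 3 of 11 were higher in NT-ESCs. ESC markers summed to 644160 and 928649 in iPSCs and to 1025771 and 1068890 in NT-ESCs, where 2 of 23 rows were higher and 5 lower. MEFs held more summed normalized reads on the cluster than iPSCs did, and a larger share of clean reads (7.07% against 4.21%), but a smaller share of miRNA reads (9.13% against 9.72%). The part of feeder RNA in the result was not tested.

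**Figure D2:**
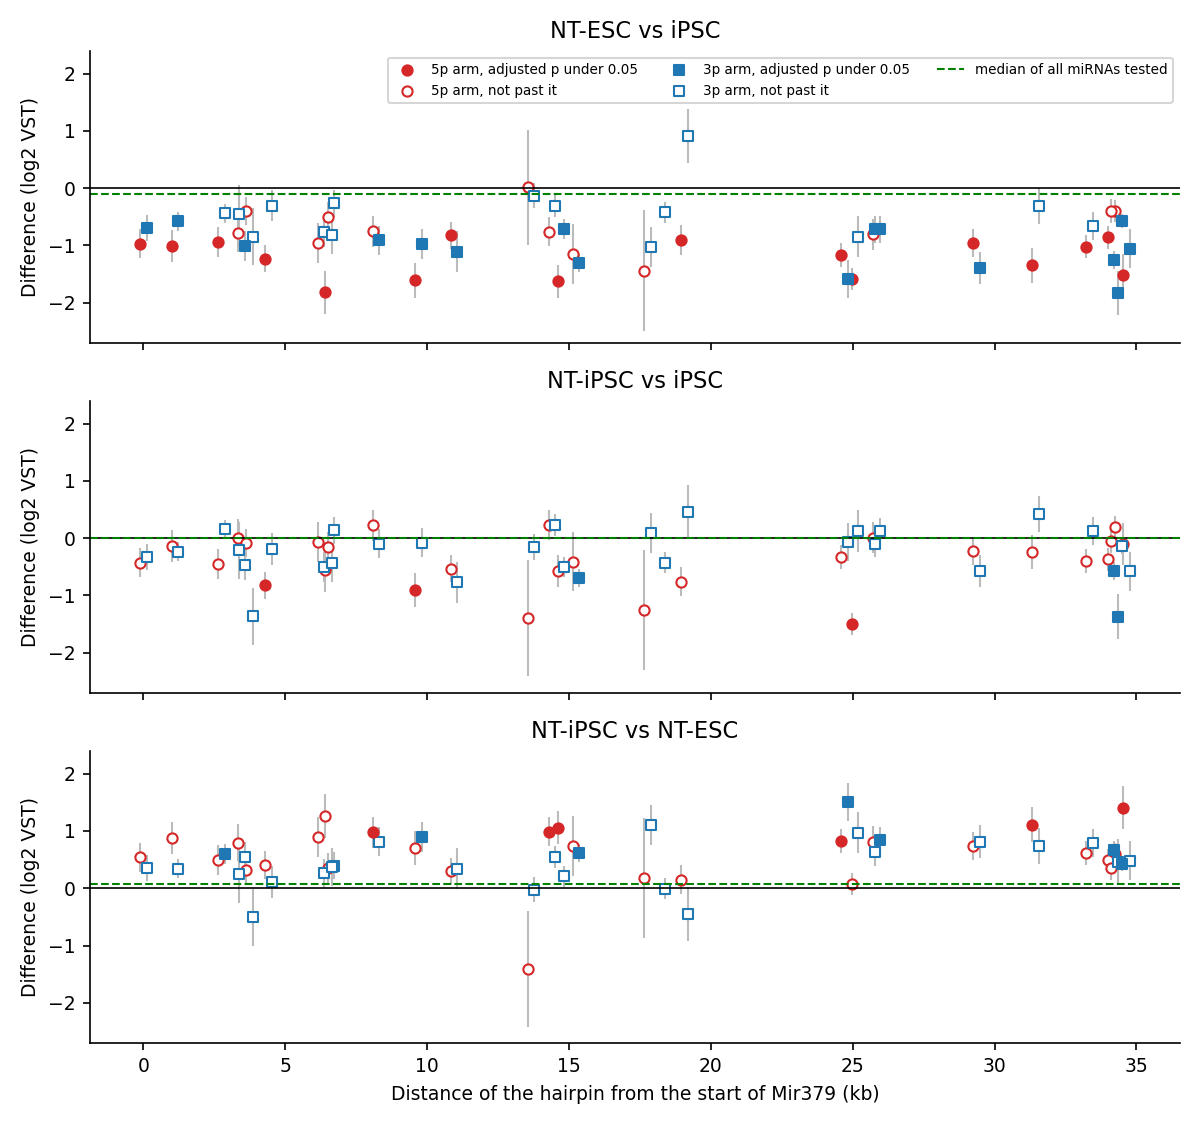
Difference of each tested member (log2 VST, with its standard error) against the distance of its hairpin from the start of Mir379 (kb), for the 3 comparisons between reprogrammed types. Filled points passed an adjusted p of 0.05, circles are 5p and squares 3p arms, and the dashed line is the median of all miRNAs tested. Nearly all points of the upper panel lie below 0, with a median of -0.88.

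NT-iPSCs lay between the other reprogrammed types. In 44 of the 64 members the mean level was highest in iPSCs, next in NT-iPSCs and lowest in NT-ESCs, an order found in 19.8% of all miRNAs tested. NT-ESCs were lowest of the 3 types in 59 members, beside 35.4% of all. Against NT-ESCs, 14 members were higher in NT-iPSCs and none lower, where 5.60% of all miRNAs tested were higher and 7.24% lower. The median difference was 0.57, beside 0.08 over all. Leaving out a library, which leaves 1 type with a single library, cost most of these calls. The count was 0 without NT-ESC replicate 71 or without replicate 72, it was 6 without NT-iPSC replicate 51, and without NT-iPSC replicate 52 there were 2 higher and 1 lower. The differences of miR-496-3p and miR-409-3p moved little, as given below. With TMM-type scaling the count was 2, with clean reads 8, with all miRNA reads 4, in a fit of these types alone 3, and with voom 24.

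Against iPSCs, 6 members were lower in NT-iPSCs and none higher, where 13.1% of all miRNAs tested were lower and 13.4% higher. The share of members lower is near that of all miRNAs. The median difference was -0.24 beside 0.00. miR-134-5p, at 11241 and 12722 normalized reads in NT-iPSCs, was as low there as in NT-ESCs and differed from iPSCs by -1.50 (SE 0.19, adjusted p = 0.000219, limma). Between NT-iPSCs and NT-ESCs its difference was 0.08 (SE 0.19), and its sign turned with the scaling. miR-300-3p, with 387 and 455 normalized reads in NT-iPSCs, differed from iPSCs by -0.69 (adjusted p = 0.00735, limma) and lost its call without NT-iPSC replicate 52, at -0.58. miR-409-3p, with 7458 and 7816, differed from iPSCs by -0.58 (adjusted p = 0.0201, limma) and from NT-ESCs by 0.67 (adjusted p = 0.0263, limma). It lay between the other types in every library, but both calls were lost whichever library of the pair was left out, with differences of -0.54 to -0.61 and of 0.64 to 0.71. miR-382-3p had 22258 and 47519 normalized reads in NT-iPSCs, so that a single library carried much of its difference of 1.51 from NT-ESCs (adjusted p = 0.0207, limma). That call was lost without NT-iPSC replicate 52, at 0.97, and without NT-ESC replicate 71 or 72, at 1.68 and 1.35. miR-496-3p, with 1599 and 1717 in NT-iPSCs beside 885 and 937 in NT-ESCs, differed by 0.86 (adjusted p = 0.0186, limma), and lost its call without NT-ESC replicate 71 or 72 (0.82 and 0.91) or NT-iPSC replicate 52 (0.81). The count against iPSCs was 3 without NT-iPSC replicate 52, 1 in a fit of these types alone, 11 with voom, 21 with clean reads and 35 with all miRNA reads. With clean reads and with all miRNA reads the median over all miRNAs tested moved to -0.25 and -0.51. Fibroblast markers summed to 371515 and 437759 normalized reads in NT-iPSCs, above both iPSC libraries, and all 10 passed as higher. Of the neural and differentiation markers 4 of 11 were higher and none lower, and of the ESC markers 2 of 23 were higher and 7 lower.

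MEFs were compared with ESCs as the somatic source against embryo-derived pluripotent cells. They also differed in strain, which cannot be told apart from the cell type here. Of the 64 members, 46 were higher in MEFs and 7 lower, where 39.1% of all miRNAs tested were higher and 39.9% lower. The median difference was 0.99, beside 0.00 over all. Scaling bears on this count, since the split over members was 29 higher and 9 lower with TMM-type scaling, 54 and 4 with upper quartile scaling, 36 and 9 with clean reads, and 10 and 17 with all miRNA reads. These scalings moved the median of all miRNAs tested to -0.39, 0.55, -0.27 and -0.80 in that order. Relative to that median the members lay 0.91 to 1.07 higher under each, a distance that scaling can hardly change. With a difference of at least 1 required as well, 33 members passed.

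The 3 members that passed with the smallest p as higher in MEFs were of the middle range of abundance. miR-380-3p had 1873, 1959 and 2262 normalized reads in MEFs and 563, 666.6 and 708 in ESCs, a difference of 1.65 (SE 0.14, adjusted p = 5.89e-07, limma). miR-496-3p had 438, 441 and 472 in MEFs and 129, 167 and 170 in ESCs, a difference of 1.54 (SE 0.14, adjusted p = 1.54e-06, limma). miR-299-3p had 3826, 4386 and 6175 in MEFs and 1466, 1646 and 1712 in ESCs, a difference of 1.55 (SE 0.18, adjusted p = 1.14e-05, limma). In each the lowest MEF library exceeded the highest ESC library. Of the most abundant members, miR-379-5p had 329578, 385991 and 482605 normalized reads in MEFs and 158023, 226221 and 237395 in ESCs. The difference was 0.95 (SE 0.21, adjusted p = 0.00136, limma), and it did not pass with TMM-type scaling (0.49) or all miRNA reads (0.06). miR-541-5p differed by 0.59 and miR-134-5p by 0.48, and both lost their calls with TMM-type scaling (0.13 and 0.013) and with clean reads (0.27 and 0.15). With all miRNA reads both turned to lower, at -0.30 and -0.41. The call of miR-134-5p was also lost without MEF replicate 13 (0.35) or ESC replicate 4 (0.33).

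The 7 members lower in MEFs included both arms of 2 hairpins. miR-323-3p had 256, 364 and 504 normalized reads in MEFs and 1172, 1257 and 1280 in ESCs, a difference of -1.77 (SE 0.22, adjusted p = 1.7e-05, limma). Its other arm miR-323-5p differed by -0.81 (adjusted p = 0.015, limma) and lost its call without MEF replicate 13 (-0.55), without ESC replicate 2 (-0.64) or with upper quartile scaling (-0.18). miR-758-5p had 16.4, 19.5 and 26.3 in MEFs and 89.1, 93.6 and 102 in ESCs, a difference of -2.18 (SE 0.20, adjusted p = 1.17e-06, limma). Its 3p arm differed by -1.67 (adjusted p = 0.00287, limma). miR-543-3p had 159, 193 and 266 in MEFs and 474, 525 and 554 in ESCs, a difference of -1.36 (SE 0.21, adjusted p = 9.34e-05, limma). The MEF and ESC libraries of these named members did not overlap, in the direction against the median of the cluster. Those of miR-376b-3p, also among the 7, did overlap, at 530 to 680 normalized reads in MEFs and 633 to 852 in ESCs. The hairpins of miR-323 and miR-758 lie among those of higher members. On chromosome 12 of GRCm38.p6 the hairpin of miR-380 starts at 109711803, that of miR-323 at 109712508, that of miR-758 at 109712810 and that of miR-329 at 109713481, and both arms of miR-380 and of miR-329 were higher in MEFs.

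Reprogrammed cells were compared with ESCs to ask how far the cells made by reprogramming resemble embryo-derived ones. Of the 64 members, 36 were higher and 21 lower in reprogrammed cells, where 44.0% of all miRNAs tested were higher and 38.0% lower. The median difference was 0.92 over the members and 0.24 over all miRNAs tested. The members lay 0.67 to 0.68 above that median under each of the 5 scalings, a distance that scaling can hardly change. The median absolute difference was 2.11 over the members and 2.00 over all. Counts stayed between 33 and 37 higher and at 21 or 22 lower under the 5 scalings. Against ESCs, 37 members were higher and 19 lower in iPSCs, 32 and 21 in NT-ESCs, and 35 and 21 in NT-iPSCs, where 39.8%, 39.8% and 41.1% of all miRNAs tested were higher and 36.1%, 36.1% and 36.5% lower. The 3 counts share the ESC libraries.

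Among the members that fell, miR-381-3p had 16475, 17650 and 18363 normalized reads in ESCs and 67.4 to 230 with a median of 120.0 in the 6 reprogrammed libraries, a difference of -7.15 (SE 0.25, adjusted p = 2.37e-10, limma). miR-380-5p had 5772, 6307 and 7504 in ESCs and 61.2 to 158 in reprogrammed cells, a difference of -5.96 (SE 0.18, adjusted p = 1.27e-10, limma). miR-300-3p had 6917, 7306 and 7400 in ESCs and 252 to 717 in reprogrammed cells, a difference of -4.07 (SE 0.11, adjusted p = 6.4e-11, limma). In each the 2 sets of libraries were far apart, with no reprogrammed library near the ESC range. miR-376b-5p (-5.21) and miR-376a-5p (-5.37) were also lower. miR-379-5p, the leading member of MEFs and ESCs, had 8628 to 21151 normalized reads in reprogrammed cells and differed from ESCs by -3.97 (SE 0.18, adjusted p = 2.04e-09, limma). miR-541-5p and miR-134-5p were lower by smaller amounts, at -1.91 and -1.89.

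Several members that rose were among the rarer ones in ESCs. miR-329-3p had 45.1, 74.1 and 80.2 normalized reads in ESCs and 4570 to 6146 with a median of 5023 in reprogrammed cells, a difference of 6.29 (SE 0.20, adjusted p = 1.27e-10, limma). miR-495-3p had 133, 179 and 204 in ESCs and 6829 to 16961 in reprogrammed cells, a difference of 5.96 (SE 0.18, adjusted p = 1.27e-10, limma). miR-299-5p had 51.99, 60.1 and 66.5 in ESCs and 1166 to 3592 in reprogrammed cells, a difference of 5.18 (SE 0.16, adjusted p = 1.27e-10, limma). Again no library of one set reached the range of the other. Of the most abundant members, miR-543-3p rose by 5.58, miR-382-3p by 5.13 and miR-323-3p by 4.57, and miR-382-5p by 1.19. miR-1193-5p, which shares its seed with miR-379-5p, rose by 4.58 while that member fell. miR-496-5p had no read in any ESC library and 9.70 to 17.2 normalized reads in the reprogrammed libraries.

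Against MEFs, 27 members were higher and 28 lower in reprogrammed cells, where 48.5% of all miRNAs tested were higher and 40.4% lower. The split depended on scaling, with 30 higher and 27 lower under TMM-type scaling or clean reads, 23 and 32 under upper quartile scaling and 36 and 21 with all miRNA reads. The median of the members lay 0.42 to 0.46 below that of all miRNAs tested in each case, a distance that scaling can hardly change. Of the members with the smallest p, miR-300-3p differed by -4.86, miR-380-5p by -7.67 and miR-376b-5p by -6.46, whereas miR-543-3p differed by 6.93, miR-323-3p by 6.35 and miR-495-3p by 6.10 (adjusted p from 5.64e-12 to 3.92e-11, limma). The 2 comparisons share the reprogrammed libraries. miR-382-5p differed from MEFs by 0.19 (SE 0.15), which was not called, and turned to -0.24 with upper quartile scaling.

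Both arms of a hairpin come from 1 precursor, and their directions were set side by side under the main scaling. Of the 23 member hairpins with both arms called between reprogrammed cells and ESCs, 9 had arms that moved in opposite directions, or 39.1%, beside 42.5% over all hairpins. Between reprogrammed cells and MEFs it was 9 of 22, or 40.9%, beside 23.4% over all. Between NT-ESCs and iPSCs both arms were called in 10 member hairpins and moved the same way in each, as they did in all 31 hairpins of the series with both arms called. Between MEFs and ESCs 3 of 22 member hairpins moved in opposite directions, or 13.6%, beside 3.05% over all hairpins. The plot of 5p against 3p differences shows these hairpins. Between MEFs and ESCs, miR-543 lay off the diagonal at 1.01 for its 5p and -1.36 for its 3p arm.

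**Figure D3:**
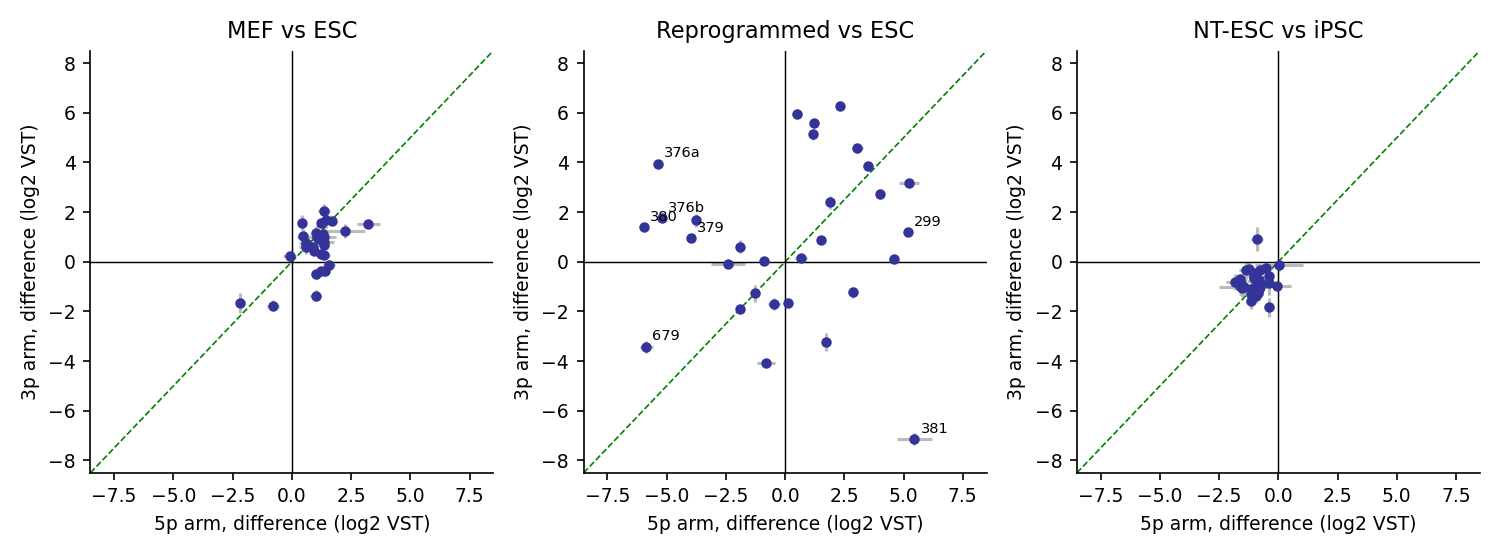
Difference of the 3p arm against that of the 5p arm (log2 VST, bars are standard errors) for the 30 member hairpins with both arms tested, in 3 comparisons. Points off the dashed diagonal are hairpins whose arms changed unequally. In the middle panel miR-381 lies at 5.46 for its 5p and -7.15 for its 3p arm.

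The log2 ratio of 5p to 3p reads, taken on the recovered reads so that no scaling enters it, was tested in the 173 hairpins with at least 100 reads of both arms together in every library, of which 29 were members. It differed between reprogrammed cells and ESCs in 24 of the 29, where 77.5% of all hairpins differed, with 10 toward the 5p and 14 toward the 3p arm. Against MEFs it differed in 25 of 29, beside 79.8% of all. Between MEFs and ESCs it differed in 9 of 29, beside 24.9% of all. Between the reprogrammed types no member hairpin passed, where 0 to 0.578% of all hairpins did, and 6, 5 and 1 member hairpins had an unadjusted p under 0.05, beside 29, 30 and 16 of the 173. With a pseudocount of 5 reads 2 passed between NT-ESCs and iPSCs and 3 between NT-iPSCs and iPSCs, and without NT-iPSC replicate 52 a single hairpin passed in each comparison with NT-iPSCs.

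In 7 of the 29 hairpins, or 24.1%, one arm held most reads in all 6 MEF and ESC libraries and the other arm in all 6 reprogrammed libraries. This was so in 8.67% of all hairpins. These are miR-380, miR-376a, miR-376b, miR-667 and miR-329, which went from 5p to 3p, and miR-1193 and miR-377, which went from 3p to 5p. They were picked out after their values were seen. miR-380 had 90.0% to 92.2% of its reads on the 5p arm in MEFs and ESCs and 4.04% to 7.89% in reprogrammed cells, a change in the log2 arm ratio of -7.36 against ESCs (SE 0.20, adjusted p = 2.29e-11, limma). miR-376a had 52.8% to 68.5% and 0.0878% to 0.261%, a change of -9.35 (SE 0.23, adjusted p = 1.89e-11, limma). miR-376b had 66.6% to 88.0% and 1.11% to 2.51%, a change of -6.98 (SE 0.23, adjusted p = 1.06e-10, limma). The 3p arms of these last hairpins are the similar pair named above, so the reads of each are uncertain. miR-495, which is not one of the 7, had 22.4% to 55.6% and 0.555% to 1.06%, a change of -5.45 (SE 0.19, adjusted p = 1.76e-10, limma). The ranges of the 2 sets of libraries were separate in each, while the 3 reprogrammed types lay together.

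Between MEFs and ESCs 8 of the 9 shifts were toward the 5p arm in MEFs, where over all hairpins 21 were toward the 5p and 22 toward the 3p arm. miR-543 had 26.4% to 38.9% of its reads on the 5p arm in MEFs and 6.90% to 11.0% in ESCs, a change in the log2 arm ratio of 2.37 (SE 0.30, adjusted p = 0.00019, limma). miR-495 changed by 1.72 (adjusted p = 0.00019, limma), miR-154 by 1.78 (adjusted p = 0.000229, limma) and miR-485 by 1.54 (adjusted p = 0.000581, limma). These hairpins did not overlap between the 2 cell types either.

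**Figure D4:**
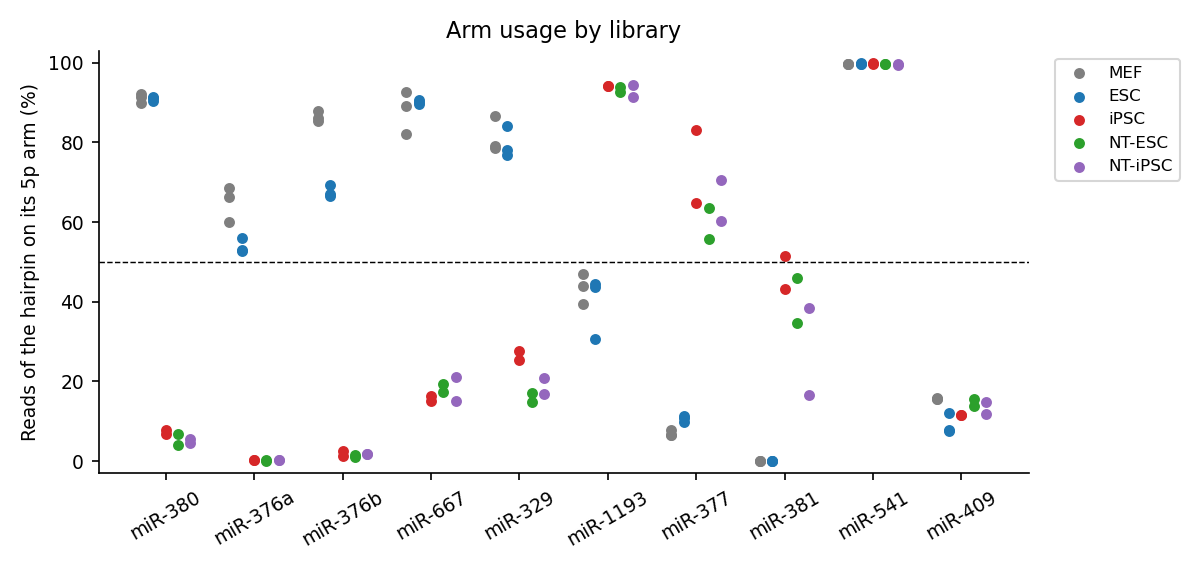
Share of a hairpin's reads on its 5p arm (%) in every library, for the 7 member hairpins whose major arm differed between the reprogrammed libraries and the others and for miR-381, miR-541 and miR-409. Each point is a library, coloured by cell type. miR-380 lies at 90.0% or more in MEFs and ESCs and at 7.89% or less in reprogrammed cells.

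With both arms summed, 16 member hairpins were higher and 14 lower in reprogrammed cells than in ESCs, of 34 tested, where 41.9% of all hairpins were higher and 38.3% lower. miR-376b, whose arms exchanged places, differed by 0.15 in sum (SE 0.11, adjusted p = 0.216, limma), and miR-377 by 0.25 (SE 0.16, adjusted p = 0.172, limma). Others changed in sum as well, with miR-381 at -6.43, miR-380 at -1.98 and miR-329 at 4.32. The hairpins of miR-380 and miR-329 start within 2 kb of each other, so that neighbours differed in opposite directions also as sums.

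In the same comparison, the median difference of the members varied with the end of the mature sequence, with wide overlap between classes. This was looked at after the values were seen and is given as a description, without a test, over the 56 tested members with a sequence. In reprogrammed cells against ESCs, the 28 members with no G among the last 4 bases had a median difference of 1.38, the 20 with a single G 0.32, and the 8 with 2 or more -3.69. Over all miRNAs with a sequence, the medians were 1.38, -0.25 and -1.26. Among the sequences printed above, miR-329-3p and miR-495-3p end without a G, while miR-380-5p and miR-379-5p have 2 or more, but miR-300-3p and miR-541-5p end without one and fell. miR-412-3p, chosen after its value was seen, has 2 or more and rose, by 2.39 on the log2 scale (adjusted p = 8.18e-06, limma). For MEFs against ESCs the member medians were 0.52, 1.25 and 1.14, and for NT-ESCs against iPSCs -0.74, -0.98 and -1.28. The size factors given above separate the same sets of libraries, and the part of library preparation in these differences was not tested.

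**Figure D5:**
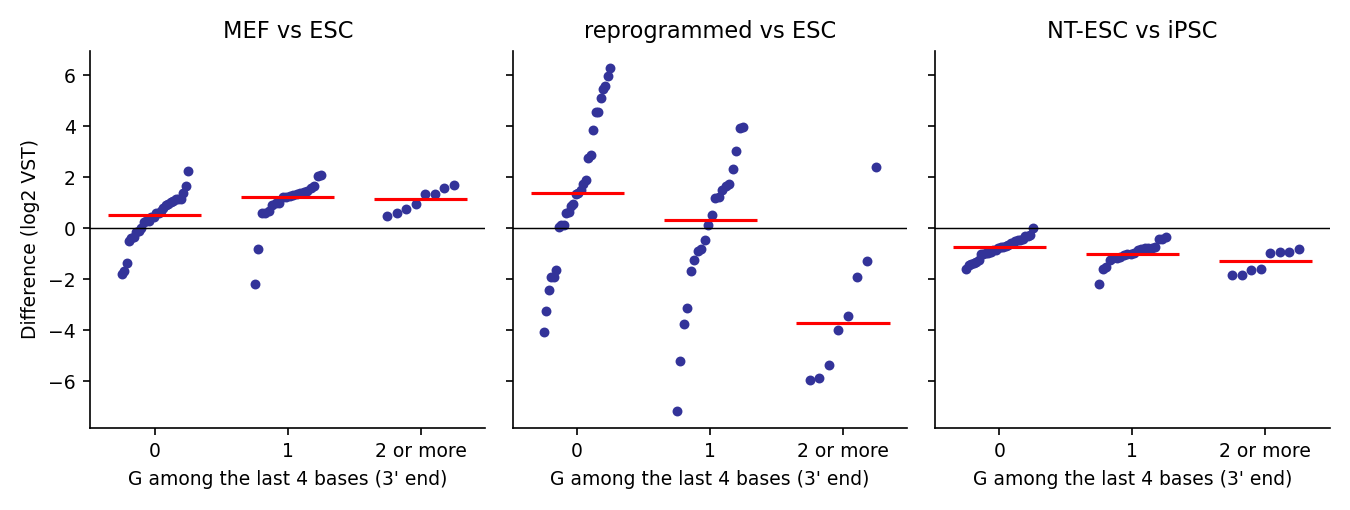
Difference of each tested member with a RefSeq sequence (log2 VST) by the number of G among its last 4 bases, in 3 comparisons, with the median of each class as a line. In the middle panel the median falls from 1.38 with no G to -3.69 with 2 or more.

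Across the 5 cell types, the mean level was highest in MEFs for 28 members and highest in iPSCs for 28, where 30.6% and 23.9% of all miRNAs tested were. It was highest in NT-iPSCs for 7 (10.9%), in ESCs for 1 (1.56%) and in NT-ESCs for none, beside 12.4%, 22.0% and 11.1% of all. It was lowest in NT-ESCs for 26 members and in ESCs for 25, beside 13.8% and 24.3% of all. The limits named above for setting reprogrammed cells against MEFs or ESCs hold for these orders too. The orders were taken under the main scaling only, and the split of members between MEFs and ESCs moved with scaling, as given above. On the side of Meg3, Rtl1 and Rian, reprogrammed cells exceeded ESCs in 16 of 30 miRNAs and were lower in 9, beside the 44.0% and 38.0% of all miRNAs tested. In MEFs 18 were higher and 1 lower than in ESCs, beside 39.1% and 39.9% of all.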

How the data were processed

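Small RNA libraries of 18 to 30 nt from 12 samples were used. According to the methods of the study, the authors cleaned and annotated the reads before miRNAs were normalized. The authors deposited variance stabilized log2 values, made with DESeq, with a row for each miRNA and a column for each library. The submitters' notes, by the authors, name DESeq and the build mm8. Aligner and miRBase release are not given in the sources used here. The curve was inverted, which gave whole reads for 100% of nonzero values within 0.05 read. Since the table is not of counts, the main test was not a count test, and voom on the recovered reads was an alternative. limma (3.58.1, R 4.3.3) was fitted on the deposited values with a mean per cell type and a trended empirical Bayes step, and p-values were adjusted by the Benjamini-Hochberg method over 732 miRNAs. The same was done on log2((5p + 0.5)/(3p + 0.5)) for arm usage. Clean reads, used as an alternative library size, are the study's. Summaries used Python 3.11.15, numpy 2.4.6, pandas 2.3.3 and matplotlib 3.10.9.

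The members and lists were chosen with earlier results of these data known. Members named are the 8 most abundant, in each comparison and direction the 3 of smallest p, up to 5 past the threshold against the majority, the 4 arm shifts with the smallest p, members that share a seed, and the ends of ranges. Others are marked. TMM-type scaling trims 30% of log ratios and 5% of abundances. Alternatives were other scalings, filters, transformations, groups in the fit and replicates left out. Reads of replicates differed by 46.4 to 350 times counting noise (chi-square per degree of freedom), so floors cover counting error only. Tested on simulated data, limma recovered 68.8% of differences of 1 between NT-ESCs and iPSCs and 97.9% of differences of 2, with 1.00% of unchanged miRNAs called.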

Additional observations from a re-analysis of the deposited data

Results flagged for a closer look

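For 2 members the estimated difference from ESCs had opposite signs in iPSCs and NT-ESCs, 1 of the 2 estimates did not pass the test, and the difference between these types did. miR-410-5p was at 0.08 in iPSCs against ESCs (adjusted p = 0.835, limma) and at -1.44 in NT-ESCs against ESCs (adjusted p = 0.00228, limma), and NT-ESCs differed from iPSCs by -1.52 (adjusted p = 0.0123, limma). It had 202, 228 and 259 normalized reads in ESCs, 236 and 246 in iPSCs and 70.0 and 100.4 in NT-ESCs. miR-495-5p was at 1.35 in iPSCs against ESCs (adjusted p = 0.000871, limma) and at -0.25 in NT-ESCs (adjusted p = 0.42, limma), and NT-ESCs differed from iPSCs by -1.61 (adjusted p = 0.00335, limma). It had 42.9, 59.1 and 68.2 normalized reads in ESCs, 114 and 181 in iPSCs and 40.2 and 54.2 in NT-ESCs. For these 2 members, the groups of 2 or 3 libraries were not examined for single libraries far from the others.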

How the results depend on the processing

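No paired analysis was possible because no replicate number occurs in more than 1 cell type. For NT-ESCs against iPSCs (35 members called), the count was 20 with a minimum difference of 1, 22 with only these groups, 53 with all miRNA reads as library size, and 12 to 30 with a replicate left out. For NT-iPSCs against iPSCs (6) it was 2, 1 and 35 in the same order, 21 with clean reads, 11 with voom, and 3 to 6 with a replicate left out. For NT-iPSCs against NT-ESCs (14) it was 4, 3 and 4, 2 with TMM-type scaling, 8 with clean reads, 24 with voom, and 0 to 6. For MEFs against ESCs (53) it was 33 with a minimum difference of 1, 27 with all miRNA reads and 45 to 51. Arms summed gave 30 hairpins for reprogrammed cells, iPSCs or NT-ESCs against ESCs, 29 for MEFs against ESCs, and 31 for NT-iPSCs against ESCs and reprogrammed cells against MEFs, since 34 hairpins and not 64 arms were tested. Leaving out a replicate moved the counts for reprogrammed cells to 55 to 57 against ESCs and 53 to 56 against MEFs, and for arm usage to 23 to 25, 7 to 10 (MEFs against ESCs) and 23 to 24. Of clean reads, members took 7.07% in MEFs, 5.03% in ESCs, 4.21% in iPSCs, 2.75% in NT-iPSCs and 1.80% in NT-ESCs.

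Among named members, 12 of the recomputed differences turned sign. With all miRNA reads as library size miR-541-5p (-0.30) and miR-134-5p (-0.41) did so in MEFs against ESCs. In NT-iPSCs against NT-ESCs, miR-134-5p moved to -0.016 with TMM-type scaling, -0.0038 with clean reads, -0.10 with all miRNA reads and, with a replicate left out, to -0.011 to 0.17. miR-382-5p moved to -0.24 in reprogrammed cells against MEFs with upper quartile scaling. In NT-iPSCs against iPSCs, miR-382-3p moved to 0.01 with upper quartile scaling. With a replicate left out, miR-411-5p ranged there from -0.59 to 0.32, miR-382-3p from -0.62 to 0.48 and miR-543-3p from -0.37 to 0.18 (0.08 without NT-iPSC replicate 52). The cause of these changes was not tested. Depth limits the 7 members with at most 9 reads.

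All miRNA reads as library size, summed arms and the arm usage test between reprogrammed types were chosen after seeing the data.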
